A study of Mus musculus with 2 samples.

Results

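The promoters described here are those of protein-coding genes that hold few CpG dinucleotides and are open in mouse cortex all the same. A coding gene of GENCODE M21 was a member where the 500 bp on both sides of its transcription start site (TSS, the outermost annotated start of the gene) had a CpG observed/expected ratio under 0.35 and overlapped a DNase-seq peak in both libraries, so the members were chosen by the sequence of the window and by measured peaks. There were 441 such promoters among 8067 CpG-poor coding promoters and 21938 coding promoters in all. They are set against the 7358 CpG-poor promoters with no peak in either library and, where that helps, against the 10626 open promoters at or over the CpG limit, called the other open promoters below. Of the CpG-poor promoters 5.47% were open, against 76.6% of the coding promoters at or over the limit and 50.4% of all coding promoters. These shares follow from the rule and are given as its background.

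DNase-seq cuts nuclei with DNase I, which reaches DNA that is not wrapped on nucleosomes, and sequences the cut ends. The tissue was left cerebral cortex of male B6CASTF1/J mice aged 2 months, F1 hybrids of the C57BL/6J and CAST/EiJ strains, for which the labels name no treatment. There was 1 group of 2 samples, numbered as biological replicates 1 and 2 and described as 2 males under a shared donor record, so it is not certain that they count as independent animals. Every cell type of the tissue contributed to each library, so a peak present in few cells and a weak peak in many cells cannot be told apart, and CAST/EiJ reads were placed on a C57BL/6J reference genome.

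Most mammalian promoters lie in CpG islands, stretches rich in unmethylated CpG that hold nucleosomes away from the start site in nearly every tissue. CpG-poor promoters are usually methylated where the gene is silent, and are known for genes used by a single tissue or cell type, such as plasma proteins, keratins, globins and sensory receptors. The textbook core of such a promoter is a TATA box, a short A and T stretch upstream of the start that binds the TATA-binding protein, while CpG island promoters rely more on GC boxes bound by SP factors, on CCAAT boxes bound by NF-Y and on initiator sequences.

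The first sequences show 3 of the 4 members with a TATA box that had the tallest peaks and the 4 tallest members without one, from 150 bp upstream to 20 bp downstream of the TSS (GRCm38/mm10, 5′ to 3′ on the gene's strand, the TSS base counted as position 0). Promoters beside another gene's start or in multi-copy sequence were passed over. Capitals mark a TATA box (TATANA on the gene's strand, start from -40 to -20), a GC box (GGGCGG), a CRE (TGACGTCA), an octamer (ATGCAAAT), an extended CCAAT box (CCAATCA) or an RFX motif (GTTGCNA), the last 5 on either strand. The promoters with a TATA box were Krt77 (chr15:101869685-101869855, minus strand), Crybb1 (chr5:112255665-112255835, plus strand) and Ecm1 (chr3:95739549-95739719, minus strand). They belong to a keratin, a lens crystallin and an extracellular matrix protein.

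Krt77: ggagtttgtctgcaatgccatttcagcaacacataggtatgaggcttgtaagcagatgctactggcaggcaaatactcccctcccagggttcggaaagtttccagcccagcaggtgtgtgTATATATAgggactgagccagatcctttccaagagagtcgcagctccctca

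Crybb1: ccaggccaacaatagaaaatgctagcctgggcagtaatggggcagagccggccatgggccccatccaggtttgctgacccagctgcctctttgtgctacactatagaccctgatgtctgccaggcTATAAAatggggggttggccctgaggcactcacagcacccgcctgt

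Ecm1: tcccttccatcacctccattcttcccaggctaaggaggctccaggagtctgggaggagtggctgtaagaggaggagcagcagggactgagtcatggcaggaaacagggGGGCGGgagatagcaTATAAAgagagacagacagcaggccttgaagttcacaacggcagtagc

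The tallest without a TATA box were Tldc1 (chr8:119778396-119778566, minus strand), Gstm7 (chr3:107931797-107931967, minus strand), Madd (chr2:91183817-91183987, minus strand) and Pold4 (chr19:4231749-4231919, plus strand). Gstm7 encodes a glutathione S-transferase, Madd an exchange factor of RAB proteins and Pold4 a small subunit of DNA polymerase delta. All 4 held a GC box in the stretch shown, and Tldc1 an RFX motif as well. The tallest peaks of Madd lay outside that stretch, with centres 496.5 bp (replicate 1) and 536.5 bp (replicate 2) downstream of the start.

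Tldc1: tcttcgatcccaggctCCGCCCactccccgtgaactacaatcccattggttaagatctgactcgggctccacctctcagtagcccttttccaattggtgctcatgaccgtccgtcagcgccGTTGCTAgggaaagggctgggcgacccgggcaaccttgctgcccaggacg

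Gstm7: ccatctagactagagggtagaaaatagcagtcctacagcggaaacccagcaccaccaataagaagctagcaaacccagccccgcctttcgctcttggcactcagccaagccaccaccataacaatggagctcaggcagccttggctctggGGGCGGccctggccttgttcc

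Madd: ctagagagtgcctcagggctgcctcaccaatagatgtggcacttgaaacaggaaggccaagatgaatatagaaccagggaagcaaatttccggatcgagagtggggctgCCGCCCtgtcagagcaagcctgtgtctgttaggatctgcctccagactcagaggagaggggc

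Pold4: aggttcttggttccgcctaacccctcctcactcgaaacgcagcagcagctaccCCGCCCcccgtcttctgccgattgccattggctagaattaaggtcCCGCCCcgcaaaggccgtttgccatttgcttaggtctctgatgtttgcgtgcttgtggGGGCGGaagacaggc

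Promoters of 3 cilium genes, of 2 class II genes and of 2 genes without a peak follow. They were picked after their motifs and values had been seen. Cfap44, Iqub and Rsph14 are genes of the axoneme, the moving core of the cilium (chr16:44394646-44394816, plus strand; chr6:24515047-24515217, minus strand; chr10:75032566-75032736, minus strand). H2-Aa and H2-Eb1 encode chains of the class II antigen-presenting molecules (chr17:34287803-34287973, minus strand; chr17:34305717-34305887, plus strand). Acta1, the actin gene of skeletal muscle, and Krt10, a keratin gene of the epidermis, had no peak (chr8:123894731-123894901, minus strand; chr11:99389344-99389514, minus strand).

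Cfap44: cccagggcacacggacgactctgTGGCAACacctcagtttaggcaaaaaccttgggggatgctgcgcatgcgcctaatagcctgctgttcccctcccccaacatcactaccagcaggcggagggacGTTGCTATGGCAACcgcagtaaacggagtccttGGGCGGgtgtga

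Iqub: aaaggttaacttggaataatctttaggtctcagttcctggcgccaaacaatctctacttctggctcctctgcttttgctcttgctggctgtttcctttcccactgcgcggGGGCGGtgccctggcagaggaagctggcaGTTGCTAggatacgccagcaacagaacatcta

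Rsph14: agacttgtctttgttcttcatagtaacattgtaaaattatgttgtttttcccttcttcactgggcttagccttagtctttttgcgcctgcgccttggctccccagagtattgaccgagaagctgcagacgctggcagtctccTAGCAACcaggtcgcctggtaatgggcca

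H2-Aa: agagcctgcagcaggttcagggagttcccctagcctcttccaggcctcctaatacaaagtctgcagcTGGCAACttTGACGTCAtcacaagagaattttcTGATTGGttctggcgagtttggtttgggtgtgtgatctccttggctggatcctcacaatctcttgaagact

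H2-Eb1: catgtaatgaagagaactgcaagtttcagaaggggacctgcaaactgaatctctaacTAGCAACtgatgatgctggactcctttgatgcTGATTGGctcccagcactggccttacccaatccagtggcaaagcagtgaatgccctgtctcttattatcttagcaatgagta

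Acta1: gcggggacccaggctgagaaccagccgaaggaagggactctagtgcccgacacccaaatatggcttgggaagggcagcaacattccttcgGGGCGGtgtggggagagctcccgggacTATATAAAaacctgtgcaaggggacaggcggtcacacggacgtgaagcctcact

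Krt10: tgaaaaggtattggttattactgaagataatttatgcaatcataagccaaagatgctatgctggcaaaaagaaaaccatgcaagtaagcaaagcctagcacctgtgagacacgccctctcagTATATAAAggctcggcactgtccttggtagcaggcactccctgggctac

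In Cfap44 the RFX motifs at -24 and -17 abut as an inverted repeat, with another at -127. In Iqub the motif lay at -11 and in Rsph14 at -8. H2-Aa had an RFX motif at -83, a CRE at -74 and an extended CCAAT box at -50, and H2-Eb1 an RFX motif at -93 and an extended CCAAT box at -61. RFX, CRE and CCAAT motifs in this order are known from class II promoters as the X, X2 and Y boxes, to which RFX, CREB and NF-Y bind. Acta1 carried TATA matches at -33 and -31 and Krt10 at -28 and -26.

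The tissue label was checked on marker genes, whatever their CpG content. Of 6 excitatory neuron markers 5 had a promoter peak in replicate 1 and 3 in replicate 2, and of 3 inhibitory neuron markers 2 had one in replicate 1 and 0 in replicate 2. Peaks in both libraries were found for 1 of 3 astrocyte markers, 2 of 3 oligodendrocyte markers, 0 of 4 microglial markers, 0 of 2 endothelial markers and 0 of 3 cerebellar markers, of which 1 had a peak in replicate 1. The shorter peak lists held 65017 intervals in replicate 1 and 76962 in replicate 2, and the depth of the libraries is unknown.

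The share of open promoters was higher where CpG content was higher inside the CpG-poor class as well, with the classes from 0.1 to 0.15 and from 0.15 to 0.2 level at 2.54% and 2.50%. It was 0.381% of 525 promoters with a ratio under 0.05, 2.54% of 1691 from 0.1 to 0.15, 6.13% of 1273 from 0.2 to 0.25 and 19.1% of 800 from 0.3 to 0.35. Just over the limit, from 0.35 to 0.4, 26.9% of 718 were open. Their exact 95% intervals, which cover counting error over promoters only, were 0.0462% to 1.37%, 1.85% to 3.41%, 4.87% to 7.59%, 16.5% to 22.02% and 23.7% to 30.3%. The limit of 0.35 therefore cuts through a slope, and the members lay mostly near it, with a median ratio of 0.27 against 0.16 for the CpG-poor promoters without a peak.

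**Figure D1:**
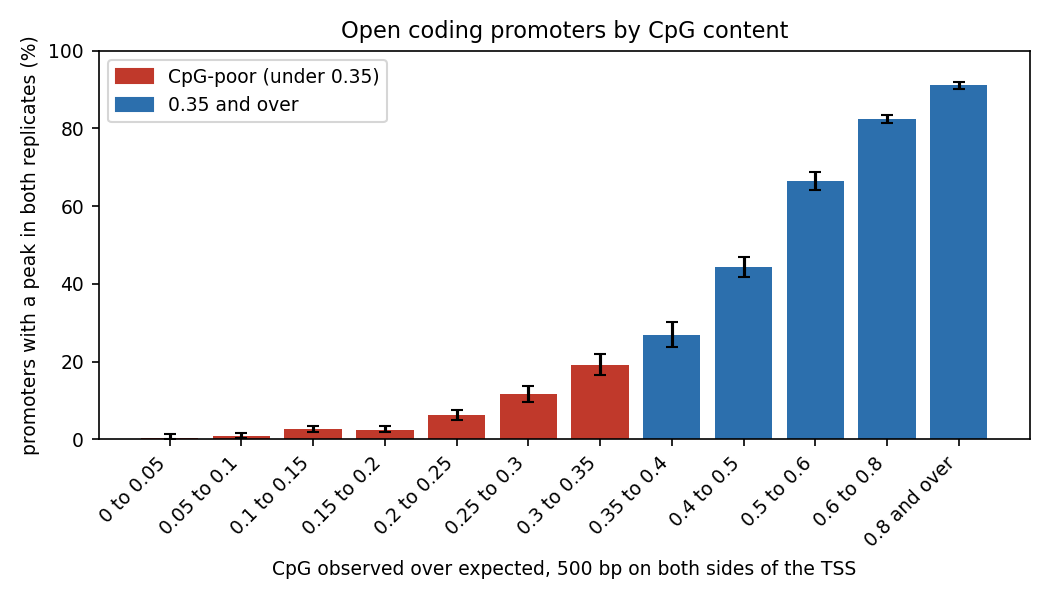
Share of coding promoters with a peak in both replicates (vertical axis, percent) by CpG observed/expected of the window (horizontal axis). Red bars are CpG-poor and blue bars are at or over 0.35, with exact 95% intervals over promoters, and the share climbs from 0.381% in the lowest class to 91.1% in the highest with no step at the limit.

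The members closest under the limit were Mttp, which loads fat onto lipoproteins, at 0.3495 with heights of 2.09 in replicate 1 and 1.86 in replicate 2, then Gstp2 at 0.349 (1.68 and 1.53), Il6 at 0.349 (1.64 and 1.55), Stc1 at 0.349 (0.799 and 0.912) and Fam13a at 0.348 (2.15 and 1.86). The open promoters closest over it were Syn3 at 0.3503 (5.05 and 2.42), Chd2 at 0.351 (0.971 and 0.898), Wnt16 at 0.351 (0.682 and 0.398), Nsg2 at 0.351 (3.49 and 2.04) and Sulf1 at 0.351 (0.380 and 0.601). In replicate 1 they spanned 0.799 to 2.15 under the limit and 0.380 to 5.05 over it, and overlapped.

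The lowest CpG ratios among the members were 0 for 4931408C20Rik (heights 0.643 in replicate 1 and 0.405 in replicate 2), 0.028 for the olfactory receptor gene Olfr434 (0.414 and 1.09), 0.063 for L1cam, a neuronal adhesion gene (0.548 and 0.635), 0.063 for Slco1c1, the thyroid hormone transporter of the blood-brain barrier (0.471 and 0.614), and 0.063 for Cyp4f40 (0.298 and 0.398). In replicate 1 all 5 lay under the members' median height of 1.26, and in replicate 2 Olfr434 alone was over the median of 0.945.

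Peak height is the authors' own value, used here as deposited. The members' tallest window peak had a median of 1.26 in replicate 1 (quartiles 0.781 and 1.82, highest 10.6) and 0.945 in replicate 2 (quartiles 0.655 and 1.47, highest 6.27). The other open promoters had medians of 3.92 in replicate 1 and 2.24 in replicate 2. As the geometric mean of both replicates, the median was 1.10 for the members, 2.97 for the other open promoters and 0.856 for the 23895 shared regions over 2 kb from any TSS. The members thus stood nearer to distal regions than to other promoters in height. These heights come from the peaks that chose the members and are a description.

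**Figure D2:**
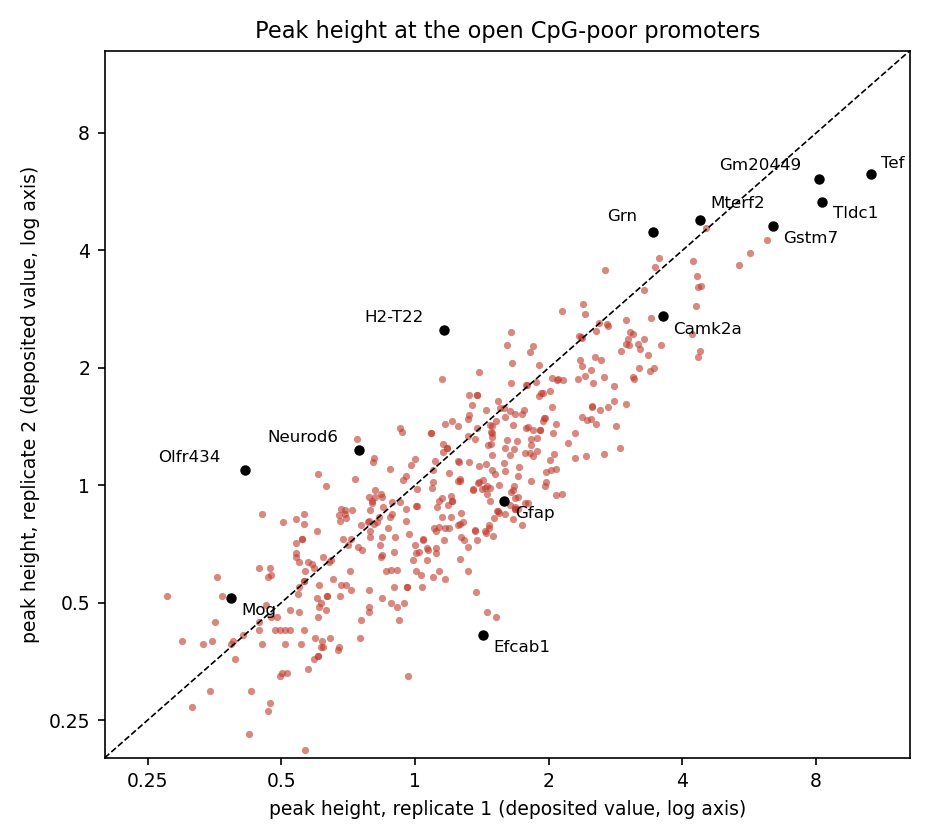
Peak height in replicate 1 (horizontal) and replicate 2 (vertical) for the 441 open CpG-poor promoters, both log axes, with equality dashed and 13 genes labelled in black. Tef, Gm20449, Tldc1 and Gstm7 stand at the upper right, and 320 of 441 points lie under the line, that is, taller in replicate 1.

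Across the members, heights in both replicates went together, with a Spearman correlation of 0.843 over 441 promoters that share a library at each axis (0.926 over the 10626 other open promoters). The difference between the libraries was smaller at the members. On the log2 scale, replicate 2 over replicate 1 had a median of -0.34 in peak height at the members, against -0.79 for the other open promoters and -0.20 for the shared distal regions. Of the members 72.6% were taller in replicate 1 (95% interval 68.1% to 76.7%), against 96.3% of the other open promoters (96.0% to 96.7%). The gap was there at matched height under 4: between heights of 1 and 2 the median log2 ratio was -0.41 for 174 members and -0.96 for 2263 other open promoters, and between 0.5 and 1 it was -0.19 for 155 members and -0.86 for 966 others. Over 4 it was smaller, with -0.52 for 9 members and -0.62 for 3467 others.

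The same asymmetry appeared among promoters with a peak in a single library. Of the 268 such CpG-poor promoters, 138 had it in replicate 1 and 130 in replicate 2, so replicate 1 made up 51.5% (45.3% to 57.6%). Of the 1166 such promoters at or over the CpG limit, 1118 had it in replicate 1 and 48 in replicate 2, so replicate 1 made up 95.9% (94.6% to 96.9%). With 1 library against 1, an animal, a preparation and a library cannot be told apart.

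The members farthest to replicate 1 were Efcab1, with heights of 1.42 in replicate 1 and 0.412 in replicate 2 and a log2 ratio of -1.79, Gm11627 with 1.52 and 0.459 (-1.73) and Pdzd9 with 1.45 and 0.473 (-1.62). Those farthest to replicate 2 were Olfr434, with 0.414 in replicate 1 and 1.09 in replicate 2 (1.40), and the neighbours H2-T22, a class I histocompatibility gene, and Gm6034, both with 1.16 and 2.50 (1.11). H2-T22 and Gm6034 hold the same peak. In all, 18 members shared their tallest replicate 1 peak with another member, among them the pairs Tmem176a and Tmem176b, Igtp and Irgm2, Nphs1 and Kirrel2, and Il18 and Bco2.

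The tallest member was Tef, which encodes a PAR bZIP transcription factor of the circadian output, with heights of 10.6 in replicate 1 and 6.27 in replicate 2. Gm20449, a predicted gene whose peak lies at the start of the neighbouring gene AW146154, had 8.14 and 6.10. Tldc1 had 8.26 and 5.33, Gstm7 6.39 and 4.61, Madd 6.19 and 4.26 and Pold4 5.66 and 3.94. These 6 were taller in replicate 1. Mterf2, a gene of mitochondrial transcription, had 4.37 and 4.78 and Ptms, which encodes parathymosin, 4.52 and 4.56, close to even. Amigo3, an adhesion gene with leucine-rich repeats, had 5.36 and 3.66, and Sult2b1, a sulfotransferase gene, 4.30 and 3.44. The lysosomal genes Tpp1 and Grn, which encode a tripeptidyl peptidase and progranulin, had 4.23 and 3.77 (Tpp1) and 3.43 and 4.46 (Grn), and Grn was the one of the 12 tallest with the clearest lean to replicate 2.

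Some members' peaks also reached a start with more CpG. In 59 members the tallest peak also touched the 500 bp on either side of a start of the same gene at or over the CpG limit, as in Madd, Grn, Gria1 and Gpr37. In 12 it touched that of another gene, as in Gm20449 and Sult2b1, and in 6 both. In 364 members, or 82.5%, it touched neither (95% interval 78.7% to 86.0%). Another gene's TSS lay within 1 kb of 15.6% of the members (12.4% to 19.4%) and of 6.59% of the CpG-poor promoters without a peak (6.03% to 7.18%). The peaks of both replicates covered the TSS base in 46.3% of the members, and in 66.2% of the other open promoters. Within the members' replicate 1 peaks themselves, the CpG ratio had a median of 0.33 and quartiles of 0.20 and 0.45. The median lay just under the CpG limit and the upper quartile over it. A CpG-poor window therefore did not always mean a CpG-poor peak.

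The members were next read by what their genes do, in 9 groups drawn up after the members were known, which cover 155 of the 441. The 40 genes of the synapse and of excitability had a median of 1.33 for height, taken as the geometric mean over the replicates, against 1.10 for all members. Clstn3, a synaptic adhesion gene, had 4.30 in replicate 1 and 2.88 in replicate 2. Camk2a, the kinase of excitatory synapses, had 3.61 and 2.72. Slc8a2, a sodium-calcium exchanger gene, had 3.09 and 1.90, Ddn, of the postsynaptic density, 2.36 and 2.40, and Kcna1, a potassium channel gene, 2.62 and 2.09. Gng3, a G protein subunit gene, had 2.42 and 1.90, Kcnj9, of a G protein-gated potassium channel, 1.90 and 2.04, and Nrxn3, a presynaptic adhesion gene, 2.37 and 1.49. In Ddn, Kcna1 and Cacng8 the replicate 1 peak centre lay over 450 bp from the gene-level start. The group reached down to 0.548.

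Genes of neuronal growth and identity, 18 members, had a median of 1.65. Pcp4, a calmodulin regulator, had 4.21 in replicate 1 and 2.44 in replicate 2, Mapk10, a neuronal JNK, 2.67 and 3.57, Stmn4 2.99 and 2.65 and Stmn2 1.45 and 1.56, both of which encode stathmins that act on microtubules. Fez1, an axon growth gene, had 3.20 and 2.24. Neurod6, a transcription factor of excitatory cortical neurons, had 0.747 and 1.23, with a log2 ratio of 0.72. The 16 receptor and peptide genes had a median of 1.10 and stayed under 1.69, with Chrm1, a muscarinic receptor, at 1.94 and 1.47, Cck, the cholecystokinin gene of interneurons and pyramidal cells, at 0.885 and 0.844, and Htr3a, the ionotropic serotonin receptor of interneurons, at 0.648 and 0.641.

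Glial members had lower medians. The 14 genes of astrocytes and radial glia had a median of 0.848, and 7 of them were taller in replicate 1. Aldoc, an aldolase of astrocytes, had 1.69 in replicate 1 and 1.30 in replicate 2, Gfap, the astrocyte intermediate filament, 1.59 and 0.912, and Fabp7, a fatty acid binding protein of radial glia, 1.54 and 1.64. Agt, the angiotensinogen gene, had 0.786 and 0.810, Mlc1 0.630 and 0.479 and Acsbg1 0.505 and 0.804. The 6 genes of oligodendrocytes and myelin had a median of 0.818 and ran from Cmtm5 at 1.47 and 1.42 and Lgi4 at 2.05 and 1.20 to Mog, a myelin surface protein, at 0.384 and 0.513. A shared distal region lay within 50 kb of all 6, and of 63.7% of all members.

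The 27 members of antigen presentation and innate immunity had a median of 0.943. H2-Eb1 had 2.81 in replicate 1 and 1.65 in replicate 2, H2-Ab1 1.95 and 1.49 and H2-Aa 1.84 and 1.38, and Irf9, a factor of the interferon response, 2.84 and 1.42. For Irf9 the replicate 1 peak centre lay 519.5 bp downstream of the start. Il6, Il18 and Il33, which encode cytokines, had 1.64 and 1.55 (Il6), 1.09 and 1.36 (Il18) and 1.18 and 1.25 (Il33). The 8 lysosomal genes had the highest median of the 9 groups, 1.94, led by Tpp1 and Grn, with Cd68, a lysosomal membrane protein of macrophages, at 1.39 in replicate 1 and 1.95 in replicate 2. The 15 cilium genes had a median of 1.05 and leaned to replicate 1 in 14 of 15, with Cfap44 at 3.10 and 2.44, Iqub at 3.04 and 2.47 and Rsph14 at 2.66 and 1.20. In the last group, 11 genes of fat and sterol metabolism, the median was 0.995.

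**Figure D3:**
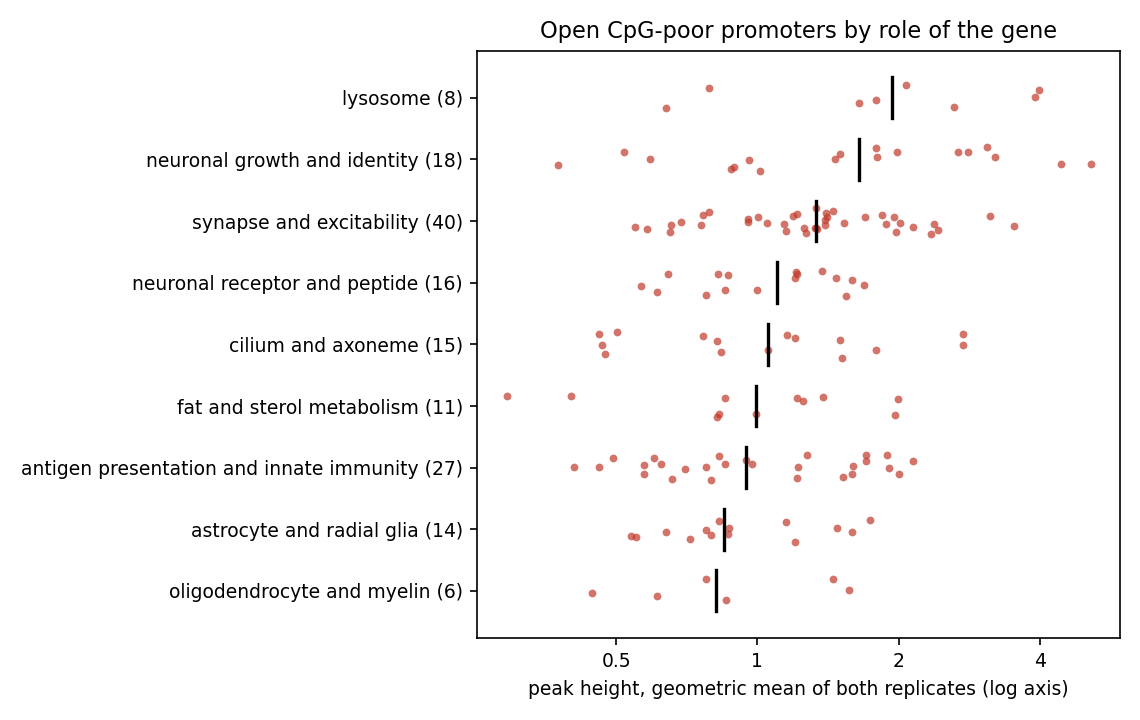
Peak height (geometric mean of both replicates, log axis) of the 155 members in 9 groups by role, with 1 point per promoter, the number of promoters in brackets and the group median as a black bar. Medians run from 1.94 for lysosomal genes to 0.818 for oligodendrocyte and myelin genes, and all groups overlap.

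Cell type lists, drawn up with earlier results known, give the other side of the count. Over the 9 brain lists, 18 of 90 CpG-poor promoters were open, or 20%, against 5.47% of all CpG-poor coding promoters. Without the gene families, with which predicted genes and RIKEN clones are counted, that share was 8.14% of 4265. Over the 7 lists of other organs, 3 of 125 were open, or 2.4%. The median CpG ratio over all genes of the brain lists, CpG-poor or not, was 0.48. Over all genes of the other organ lists it was 0.22 and over all coding promoters 0.55. Of 7 CpG-poor promoters of excitatory neuron and synapse genes 4 were open (Camk2a, Gria1, Neurod6 and Stmn2), and of 10 astrocyte promoters 5 (Acsbg1, Agt, Aldoc, Gfap and Mlc1). Gria1, a glutamate receptor subunit, had 1.63 in replicate 1 and 1.20 in replicate 2. Dlg4 and Mef2c of the first list and Aldh1l1 and Aqp4 of the second had no peak at the gene-level start.

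Inhibitory neuron genes had 2 of 8 open, Cck and Htr3a, while Gad1, Lamp5, Pvalb and Sncg had none. Of 10 neuropeptide promoters Cck alone was open, and Avp, Hcrt, Nts and Pdyn were not. Oligodendrocyte genes had 2 of 14, Mog and Gpr37, and another 4 had a peak in replicate 2 only and 2 in replicate 1 only. Gpr37, a receptor gene of myelinating cells, had 1.03 in replicate 1 and 0.587 in replicate 2. The activity gene list had 2 CpG-poor promoters, of which Plat, the tissue plasminogen activator gene, was open at 4.33 and 3.21 and Mmp9 was not. In the striatal and subcortical list Chat, Rarb and Th had no peak.

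The lists of microglia and of vessel cells had open shares nearer to the 5.47% of all CpG-poor promoters. Of 21 microglial ones 2 were open, or 9.52%, Cd68 and Olfml3 (2.99 in replicate 1 and 1.61 in replicate 2, the centre 469.5 bp upstream of the start), and 19 were not, among them Aif1, C1qa, C1qb and C1qc. Of 16 endothelial and mural ones Slco1c1 was open, or 6.25%, and Acta2, Cdh5, Emcn and Higd1b were among the 13 without a peak. For C1qc, Pdyn and Lamp5 the longer, looser lists did hold a peak. It stood at 0.579 in replicate 1 and 0.560 in replicate 2 for C1qc, at 0.462 and 0.351 for Pdyn, and at 0.371 in replicate 2 alone for Lamp5.

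In the lists of other organs, 1 of 22 liver and plasma protein promoters was open (Itih3), 2 of 12 of the lens and eye (Crybb1, a crystallin, and Opn1sw, an opsin) and 0 each of 20 of muscle and heart, 21 of blood cells, 16 of skin and epithelium, 20 of gut and pancreas and 15 of germ cells. Acta1, Actc1, Casq1 and Ckm of muscle, Alas2, Cd3e and Cd3g of blood cells, Dsg3, Flg, Ivl and Krt10 of skin and Ahsg, Alb, Amy2a5 and Apoa1 of liver and pancreas had no base with an FDR under 0.05 in the window in either library. The same held for Cel, Cela1 and Cela2a of the pancreas, for Acrv1, Akap4 and Hils1 of germ cells and for Crx, Crybb2 and Crygs of the eye. Bmp15 of germ cells had 27 such bases in replicate 2 and Cryba1 of the lens 2.

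Gene families and classes of gene symbols make up much of the CpG-poor class. They include predicted genes, with 1117 CpG-poor promoters, and RIKEN clones, with 294, which share a style of name only. Wherever families are left out, these go with them. Against 5.47% open among all CpG-poor promoters, family shares ran both ways. Of the 1126 CpG-poor olfactory receptor promoters 2 were open (Olfr434 and Olfr1414), and of 327 vomeronasal, 63 defensin and 50 taste and trace amine receptor promoters 0. Of 69 CpG-poor promoters in the class of KRAB zinc finger genes, 15 were open, or 21.7%. The class was taken by gene symbol, and the KRAB domain was not checked. The tallest were Zfp457 with 3.27 in replicate 1 and 3.16 in replicate 2, Zfp120 with 2.41 and 2.76 and Zfp950 with 2.34 and 2.41. Cytochrome P450 promoters, with 6 of 82 open or 7.32%, and keratin and keratin-associated promoters, with 5 of 84 or 5.95%, were near that share. Of the 6 P450 members 4 were Cyp4f genes, and of the 5 keratin members 4 had a TATA box. Genes in 1 of 21 families or symbol classes made up 21.3% of the members (17.6% to 25.4%) and 49.6% of the promoters without a peak (48.5% to 50.8%).

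TATA boxes were rarer among the members. A TATA box was found at 9 of 441 members, or 2.04% (95% interval 0.937% to 3.84%), against 573 of 7358 CpG-poor promoters without a peak, or 7.79% (7.19% to 8.42%). The other open promoters had it in 1.16% (0.963% to 1.38%), CpG-poor promoters with a peak in a single replicate in 5.22% (2.89% to 8.61%) and all coding promoters in 3.67%. Among the 9 members were Krtap10-10, Krtap11-1, Krtap16-1, Krt77, Ecm1, Crybb1, Clec2i and Agt, and Agt alone of those named was in a brain list. In Krtap11-1 and Krtap16-1 the replicate 1 peak centre lay 527.5 and 576.5 bp downstream of the start, away from the TATA box. Without the gene families 3 of 347 members had a TATA box, or 0.865% (0.179% to 2.51%), against 249 of 3706 without a peak, or 6.72% (5.93% to 7.57%). The TATA box was sought from the gene-level start. Of the members 336 were in the RefSeq promoter set, and 226 had a RefSeq TSS within 100 bp of that start. Another start of the same gene at or over the CpG limit was annotated for 34.2% of members and 14.7% of those without a peak. The part of start placement in the TATA shares was not tested.

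The counts were also split by base composition. With 50% to 55% GC in the window, 4 of 164 members (2.44%, interval 0.668% to 6.13%) and 85 of 1350 promoters without a peak (6.30%, 5.06% to 7.73%) had a TATA box, with overlapping intervals. With 45% to 50% GC it was 2 of 127 (1.57%, 0.191% to 5.57%) and 124 of 1817 (6.82%, 5.71% to 8.08%). In the CpG class from 0.25 to 0.35, 2 of 269 members (0.743%, 0.0902% to 2.66%) and 86 of 1414 without a peak (6.08%, 4.89% to 7.46%) had it. Under a CpG ratio of 0.15, 3 of 56 members (5.36%, 1.12% to 14.9%) and 312 of 3364 without a peak (9.27%, 8.32% to 10.3%) did, and there the intervals overlapped. They also overlapped from 0.15 to 0.25, with 3.45% of 116 members (0.947% to 8.59%) and 6.78% of 2580 without a peak (5.84% to 7.82%), and over 55% GC, with 3.37% of 89 (0.701% to 9.54%) and 5.50% of 509 (3.69% to 7.85%). Under 45% GC it was 0 of 61 members (0% to 5.87%) and 9.13% of 3682 without a peak (8.21% to 10.1%).

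TATA matches were read in steps of 20 bp to see whether they stood at the proper distance. In promoters without a peak 7.73% had a match starting from -40 to -21, against 1.33% to 3.18% in the other steps from -200 to 99. In the members 2.04% had one there, or 9 of 441, against 0.454% to 2.27% in the other steps. The highest of those, with 10 of 441, was the adjoining step from -20 to -1. With so few matches per step, the counts cannot show whether the members had an excess at that distance. In the other open promoters it was 1.15%, against 0.207% to 0.969% elsewhere. The members whose peaks covered the TSS base in both replicates had a TATA box in 4 of 204, or 1.96%, and the rest in 5 of 237, or 2.11%.

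**Figure D4:**
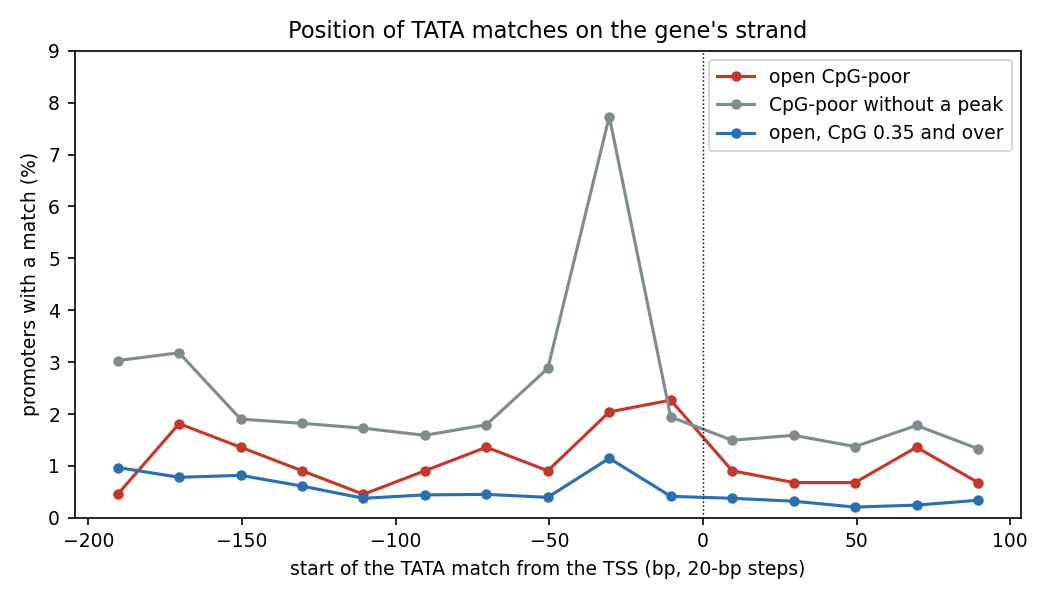
Share of promoters with a TATA match on the gene's strand (vertical, percent) by the distance of its start from the TSS in 20-bp steps (horizontal). CpG-poor promoters without a peak (grey) reach 7.73% around -30, while the open CpG-poor promoters (red) are at 2.04% there and the other open promoters (blue) at 1.15%.

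GC content was higher in the members. Over the whole window the median was 50.8% in the members and 44.96% in CpG-poor promoters without a peak, and 59.6% in the other open promoters. GC over 50% was found in 57.4% of members (52.6% to 62.0%) and in 25.3% of those without a peak (24.3% to 26.3%). The CpG rule does not fix this, since it divides by the C and G content, and within the CpG class from 0.15 to 0.25 the shares were 56.9% of 116 members (47.4% to 66.1%) and 30.7% of 2580 without a peak (28.96% to 32.6%). A CA at the start site, the initiator step, was found in 21.8% of members (18.004% to 25.9%), in 24.3% of those without a peak (23.3% to 25.3%) and in 16.3% of the other open promoters (15.6% to 17.0%), so the members' interval overlapped that of the promoters without a peak and lay above that of the other open promoters.

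Another 17 motifs were searched on both strands from -250 to 49, as descriptions of the letters there. The GC box, the CRE and the CACGTG word hold a CpG themselves, so the CpG rule bears on their shares. The GC box (GGGCGG) was in 19.5% of the members, 7.91% of the promoters without a peak, 66.6% of the other open promoters and 43.0% of all coding promoters. At 47% to 55% GC the shares were 21.9% of 251 members and 13.8% of 2369 without a peak. The CCAAT box (CCAAT) was in 39.9% of members, 40.0% of those without a peak and 39.0% of all coding promoters. The octamer (ATGCAAAT) was in 18 members, or 4.08% (all coding 1.57%, without a peak 1.97%), among them Acsbg1, Il18, Iqub, Oas1c and Tpcn2, and at 47% to 55% GC in 4.78% and 1.31%.

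The cAMP response element (TGACGTCA) was in 9 members, or 2.04%, against 0.843% of those without a peak and 2.43% of all coding promoters, and Clstn3, Mapk10 and H2-Aa were among the 9. Less common in the members than in promoters without a peak were AP-1 (TGANTCA, 7.48% and 11.5%, all coding 6.91%), the PU.1 motif of microglia and blood (GAGGAAGT, 1.81% and 4.96%, all 3.23%), the SOX motif (ACAATGG, 2.27% and 4.89%, all 2.89%) and the nuclear receptor motif (AGGTCA, 16.1% and 21.2%, all 14.8%). At 47% to 55% GC the shares were 7.17% and 9.12% for AP-1 and 2.39% and 5.02% for SOX, with overlapping 95% intervals. For PU.1 they were 1.99% and 5.61% and for the nuclear receptor motif 14.3% and 23.6%, with intervals apart. The NEUROD-type E-box was close between the groups (CAGATG, 20.6% and 22.003%, all 15.2%). The CAGCTG E-box was in 24.3% of members (20.3% to 28.5%) and 17.7% of promoters without a peak (16.8% to 18.5%; all 15.6%), and at 47% to 55% GC in 24.3% and 24.1%. The shares of CACGTG were 4.76% and 3.11% (all 7.75%), of the NFI motif (TTGGCA) 19.05% and 18.9% (all 13.8%) and of the C/EBP motif (TTGCNNAA) 13.8% and 14.8% (all 10.5%).

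The ETS, NRF1 and EGR motifs, common in CpG island promoters, were rare in the members. Each of these words holds a CpG, so a low share against the other open promoters follows in part from the CpG rule. The ETS motif (CCGGAAGT) was in 3 members (0.680%; without a peak 0.421%; other open 8.85%; all 4.70%), the NRF1 motif (GCGCATGCG) in 1, Cfap44 (0.227%; without a peak 1.03%; all 2.48%), and the EGR motif (GCGTGGGCG) in 0 of 441 (all 0.748%). The RE1 motif of the neuronal repressor REST (TTCAGCACC) was in 2 members, Cntnap2 and Fbxl22 (0.454%; without a peak 0.231%; all 0.383%).

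Another 2 motifs were added after short words had been compared between the members and the promoters without a peak, so their shares are no test. The extended CCAAT box (CCAATCA), nearer to the sequence NF-Y prefers, was in 12.2% of members, 6.85% of promoters without a peak, 11.3% of the other open promoters and 9.11% of all coding promoters. The RFX motif (GTTGCNA) was in 13.6% of members, 11.6% of promoters without a peak, 9.98% of the other open promoters and 10.5% of all.

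The RFX motif, bound by the factors that switch on cilium genes, was common in the cilium group: 12 of its 15 members held it, against 60 of all 441. Because the group was drawn up by eye, genes were also taken by symbol alone (Cfap, Dnah, Dnai, Rsph, Drc, Spef, Tekt and Efcab), with stems chosen after members had been seen. Of the members so named 6 of 6 held the motif (Cfap44, Dnah7b, Efcab1, Efcab10, Rsph14 and Spef2), of the CpG-poor promoters so named without a peak 4 of 12, and of the other open promoters so named 24 of 49. Their exact intervals were 54.1% to 100%, 9.92% to 65.1% and 34.4% to 63.7%, and overlapped. Over all coding promoters so named, 39 of 79 held the motif, or 49.4%. In the group of antigen presentation H2-Aa, H2-Eb1 and H2-Ob held the RFX motif.

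Footprints are short stretches within open regions that DNase I spares, as bound protein would, and the deposited lists give their positions. The members had a median of 3 per window in replicate 1 and 3 in replicate 2, against 7 and 5 in the other open promoters. At least 1 footprint in both replicates was found in 92.5% of members and 98.3% of the other open promoters. It was found in 52.4% of all coding promoters and 0.408% of CpG-poor promoters without a peak. Footprints lie within open regions, so these shares follow largely from the choice of the groups. At heights from 1 to 2 the medians were 4 in replicate 1 and 3 in replicate 2 for members and 6 and 4 for other open promoters. In replicate 1 the members' median was lower in every height class. In replicate 2 it was lower from a height of 0.5 up, while under 0.5 it was 2 for 43 members and 1 for 126 others. Footprints were most frequent just upstream of the start in both groups, with 47.8 per 100 members in the 50 bp before the TSS in replicate 1 and 41.5 in replicate 2, against 91.9 and 84.9 per 100 other open promoters. Among the members with the most were Gm20449 (7 in replicate 1 and 11 in replicate 2), Tef (9 and 8), Ppfia4, of the presynaptic active zone (6 and 9), and Clstn3 (10 and 5).

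**Figure D5:**
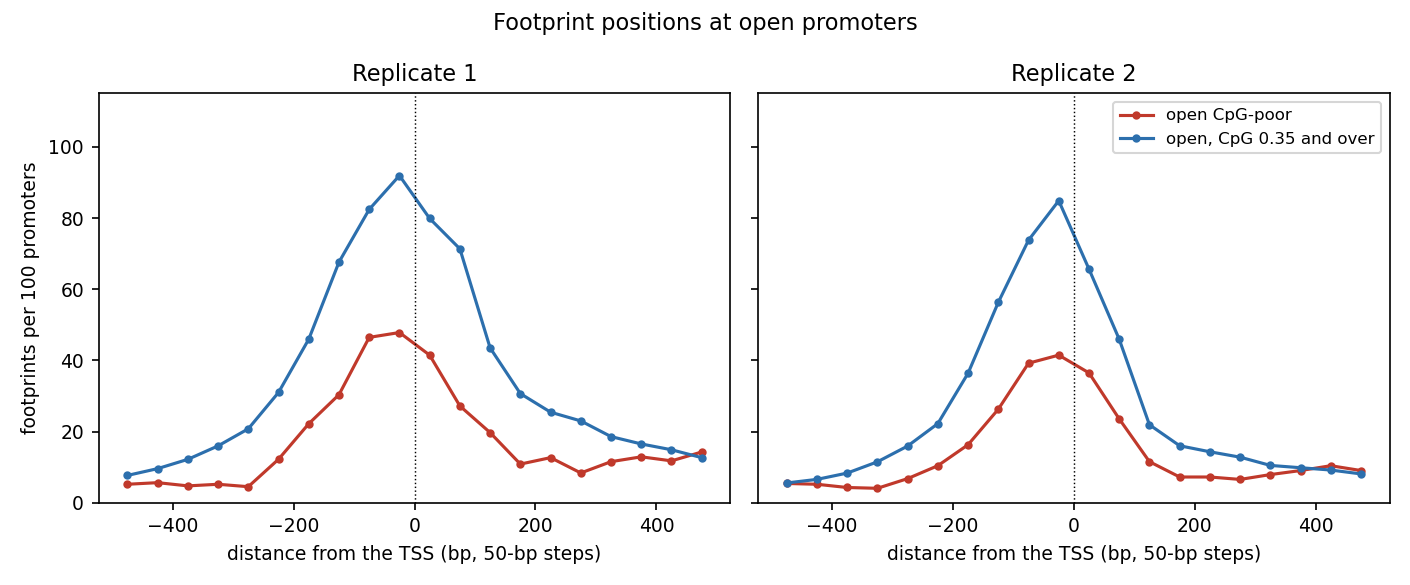
Footprints per 100 promoters (vertical) in 50-bp steps of distance from the TSS (horizontal), for the open CpG-poor promoters (red) and the other open promoters (blue), with replicate 1 on the left and replicate 2 on the right. Both groups have most footprints just upstream of the TSS, and the members reach 47.8 and 41.5 per 100 there against 91.9 and 84.9.

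Footprints and motifs were then laid over each other in the members. Of all bases from -250 to 49, 3.72% lay under a footprint in both replicates. A motif was counted as covered where a footprint of each replicate took in at least 2 of its 5 letters, 3 of 6 or 7, or 4 of 8 or 9, which is looser than the count per base. Of 75 RFX matches 22 were covered in both replicates, or 29.3% (19.4% to 41.0%), in 20 promoters that include Camk2a, Cfap44, Fez1, Kcnj9, Mapk10, Tldc1, H2-Aa, H2-Eb1 and H2-Ob. Gm5640 and Gm5936, also among the 20, lie in sequence with near-identical copies. Of the 12 cilium group members with the motif, Cfap44 and Fam92b alone were among the 20, so Iqub and Rsph14 were not. Of 109 GC boxes 21 were, or 19.3% (12.3% to 27.9%), and of 9 CRE matches 4 were, in Clstn3, H2-Aa, Zfp457 and 9330159F19Rik. In H2-Aa, whose sequence is printed above, the RFX motif, the CRE and the extended CCAAT box were covered in both replicates.

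The only NRF1 motif member, Cfap44, had its 2 overlapping matches covered in both replicates. Of the other motifs, coverage was 13.3% of 98 NFI matches (7.26% to 21.6%), 13.3% of 60 extended CCAAT boxes (5.94% to 24.6%) and 7.58% of 264 CCAAT boxes (4.69% to 11.5%). NEUROD-type E-boxes were covered in 2.94% of 102 (0.611% to 8.36%), AP-1 in 2.63% of 38, C/EBP in 1.54% of 65, the nuclear receptor motif in 1.30% of 77 and the octamer in 0 of 20 (0% to 16.8%). Footprint calls depend on the cutting preference of DNase I and on depth, and the part of these in the covered shares was not tested.

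A shared distal region lay within 50 kb of the start in 63.7% of the members (59.0% to 68.2%), in 42.0% of the CpG-poor promoters without a peak (40.9% to 43.1%) and in 63.7% of the other open promoters (62.8% to 64.6%). Kcnip3 and Srcin1 had 7 such regions each and Stmn4 9, while Grn, Clstn3 and Gfap had 0. The difference depended on where the genes lie. With an open coding promoter at or over the CpG limit within 50 kb, the share was 67.0% of 209 members (60.2% to 73.3%) and 67.8% of 2154 promoters without a peak (65.8% to 69.8%). With none, it was 60.8% of 232 members (54.2% to 67.1%) and 31.3% of 5204 without a peak (30.1% to 32.6%).

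Leaving out the gene families narrowed it, to 66.3% of 347 members (61.0% to 71.2%) and 59.1% of 3706 promoters without a peak (57.5% to 60.7%), with intervals that missed each other by a small margin. The split by CpG ratio keeps the families in. Under 0.15, 82.1% of 56 members had a distal region (69.6% to 91.1%), against 28.5% of 3364 promoters without a peak (27.0% to 30.0%). From 0.15 to 0.25 it was 69.8% of 116 members (60.6% to 78.0%) and 50.7% of 2580 without a peak (48.8% to 52.7%). From 0.25 to 0.35 it was 57.2% of 269 members (51.1% to 63.2%) and 58.3% of 1414 without a peak (55.7% to 60.9%). The intervals lay apart in both classes under 0.25 and overlapped in the class next to the limit. Large families lie low in CpG: olfactory receptor promoters had a median ratio of 0.11, and 1114 of the 1126 CpG-poor ones had no peak. The part of the families in these classes was not tested.

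The class without a peak had little signal by the other deposited measures. Of its 7358 promoters 153 had bases with an FDR under 0.05 in both libraries, or 2.08%, 16 had bases under 0.001 in both, and 81 had a peak in both longer lists. The most bases under 0.001 were found for Tmtc4 (178 in replicate 1 and 282 in replicate 2) and Ano3 (57 and 245). Multi-copy sequence, where a read may fit several places, was 50% or more of the window in 12 members and in 1400 promoters without a peak (19.03%). Its part in the missing peaks was not tested. By chromosome, the open share of CpG-poor promoters ran from 3.11% of 1029 on chromosome 7, which holds many olfactory and vomeronasal receptor genes, to 9.63% of 436 on chromosome 1, with 0 of 162 on the Y.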

How the data were processed

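DNase-seq of left cerebral cortex was read from the deposited files of 2 samples. Per the labels and the deposited file notes the build is mm10. The authors deposited peak lists with a height per peak, a signal whose scaling the sources used here do not give, footprints with 1 constant value (a p-value setting of 0.01), and stretches with an FDR, a q-value, under 0.05. The sources used here do not give the aligner, the callers or the read depth, so no depth-based interval is printed and depth is unknown. The shorter of 2 peak lists per sample was used. Replicates were treated as separate animals, and no p-value was computed with 1 group.

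GENCODE M21 coding genes and the GRCm38.p6 sequence gave windows of 1001 bp, CpG observed/expected, GC and motifs, by own code (Python 3.11.15, numpy 2.4.6, pandas 2.3.3, scipy 1.17.1, bedtools 2.31.1), tested on simulated data. Overlap needed 1 bp. Multi-copy windows had 50% or more of their 25-mers more than once in the genome. Distal regions lay over 2000 bp from every TSS. Intervals are exact Clopper-Pearson 95% intervals over promoters, which are not independent. The members, lists, motifs and tests were chosen with earlier results of these data known. Genes were named by rule: the 12 tallest, members of brain lists, the 5 lowest in CpG, 5 on both sides of the limit, extreme ratios, and most footprints, with up to 4 genes without a peak per list, and for sequences the 4 tallest with and without a TATA box. Other genes, the role groups, the motifs CCAATCA and GTTGCNA and the last 7 printed sequences were chosen after their values were seen. Alternatives changed the peak list, CpG limit, window, overlap, TSS set, TATA definition, neighbouring genes, multi-copy windows, gene families and replicates. Some genes that the rule names are not reported here.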

Additional observations from a re-analysis of the deposited data

How the results depend on the processing

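Set against CpG-poor promoters without a peak, the open ones had a lower TATA share in 16 of 16 settings, the main one included, and higher shares with a distal region within 50 kb and with GC over 50% in 14 of 14. Distal regions were kept as first defined in all settings. The setting with every annotated TSS changed which promoters counted as CpG-poor, open or without a peak. TATA boxes and GC content were still read at the gene-level start there.

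The number of open CpG-poor promoters moved to 663 with the longer peak list, 269 with the taller 50% of the shorter list's peaks, 288 with a CpG limit of 0.30 and 808 with 1000 bp windows. Their share of CpG-poor promoters moved to 8.22%, 3.33%, 3.96% and 9.31% in those settings, to 7.22% with a limit of 0.40, 4.51% with 250 bp windows, 4.97% without genes that have a neighbour's TSS within 1 kb, 6.45% without multi-copy windows and 8.14% without gene families. The TATA share of open promoters moved to 4.07% with every annotated TSS and 0.865% without families, and that of promoters without a peak to 8.59% and 6.72%, 5.12% for TATAAA alone and 10.4% for the wider position. The distal share of open promoters stayed within its interval in 13 of 13 settings. Without a peak it moved to 40.7% and 43.3% with limits of 0.30 and 0.40, 37.4% with every TSS, 48.98% without multi-copy windows and 59.1% without families. GC over 50% in open promoters moved to 62.8% with the taller peaks, 70.9% with 250 bp and 45.4% with 1000 bp windows. Without a peak it moved to 24.0% with the longer list, 26.3% with the taller peaks, 23.5% and 26.8% with limits of 0.30 and 0.40, 33.3% and 18.8% with 250 bp and 1000 bp windows, 23.2% with every TSS, 28.6% without multi-copy windows and 36.6% without families. The cause was not tested, beyond fewer or more promoters entering by construction.

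With either replicate left out, the number ran from 571 to 579 and the share from 7.08% to 7.18%, the TATA shares from 2.63% to 2.94% (open) and 7.73% to 7.75% (no peak), the distal shares from 64.2% to 64.3% and 42.4% to 42.4%, and the GC shares from 51.0% to 60.6% and 25.3% to 26.1%. No paired analysis was possible because there is only 1 group. The depth of the libraries is unknown, so a missing peak does not show closed chromatin.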
